A study of Mus musculus with 18 samples.

Results

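The genes described here are the amino acid transporter genes of mouse pro-B cells, taken as every gene of the RNA table whose symbol begins with Slc1a, Slc3a, Slc6a, Slc7a, Slc36a, Slc38a or Slc43a. There were 64 such genes among 24072. The choice rests on symbols alone and uses no measured value. It takes in 20 genes of the SLC6 family, 16 of SLC7, 11 of SLC38, 7 of SLC1, 5 of SLC36, 3 of SLC43 and 2 of SLC3. Of these, 3 (Slc36a1os, Slc6a19os and Slc7a6os) match by name only and are neighbouring opposite-strand genes, which leaves 61 transporter family genes. Some of the 61 carry other cargo, such as taurine (Slc6a6), creatine (Slc6a8) or neurotransmitters.

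The cells were pro-B cells grown from fetal liver of C57BL6/J mice that were Ebf1 deficient (Ebf1-/-), Pax5 deficient (Pax5-/-) or wild type (Wt). All 3 genotypes shared the same culture, a layer of OP9 stromal cells in serum-containing medium with interleukin-7, KIT ligand and the ligand of FLT3. EBF1 and PAX5 are transcription factors that establish and hold B cell identity, and the study asked how loss of either alters transcripts and open chromatin. RNA and accessible chromatin (ATAC, in which a transposase cuts open DNA) were each sequenced in 3 libraries per genotype, so 9 RNA and 9 ATAC libraries enter here. The cells were expanded in culture and were bulk samples, so fewer cells with a transcript and less transcript per cell cannot be told apart. The labels do not say whether the libraries of a genotype came from separate cultures or fetuses, so the p-values measure only how far these libraries spread, which may be technical.

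Amino acid transporters let cells import, exchange and sense the building blocks of protein. SLC1A5 and the SLC38 carriers SNAT1 and SNAT2 bring in glutamine and other small neutral amino acids with sodium. SLC7 light chains work as dimers with an SLC3 heavy chain and trade one amino acid for another: LAT1 (SLC7A5) with CD98 heavy chain (SLC3A2) takes up leucine and other large neutral amino acids, and xCT (SLC7A11) with the same heavy chain takes up cystine in exchange for glutamate. Growing lymphocytes depend on several of these carriers, and lysosomal members pass amino acid signals to the growth kinase mTORC1.

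RNA libraries held 15.6 to 63.6 M reads in exons. These made up 47.0 to 71.4% of mapped reads, so levels are given as normalised reads, meaning reads per 10 M exonic reads after TMM scaling, a correction for library composition. Ebf1 was at 2166 to 2290.4 normalised reads in Ebf1-/-, 2341 to 2537 in Pax5-/- and 7006 to 7820 in Wt, and Pax5 was at 13.3 to 24.2 in Ebf1-/-, 161 to 182 in Pax5-/- and 2831 to 3008 in Wt. The table sums all exons of a gene and so cannot show a deleted part. Igll1, a surrogate light chain gene that marks pro-B cells, was at 12.1 to 15.3 in Ebf1-/-, 6188 to 8154 in Pax5-/- and 13485 to 15381 in Wt, so this defining marker was near 0 in Ebf1-/-. Markers of other blood cells moved with genotype. Summed over 8 macrophage and neutrophil markers, the level was 2420.4 to 2946 in Ebf1-/-, 309 to 341 in Pax5-/- and 15.6 to 36.9 in Wt. Of its 6 tested genes, 4 were called higher and 1 lower in Ebf1-/- than in Wt and 5 higher in Pax5-/- than in Wt, while Cd14 had no read in Ebf1-/- or Wt. Summed over 9 T and NK cell markers, the level was 849 to 919.5 in Ebf1-/-, 39.3 to 46.7 in Pax5-/- and 8.07 to 10.4 in Wt, with 7 and 4 of 7 tested genes called higher in Ebf1-/- and Pax5-/- than in Wt. Of 8 hepatocyte markers, 5 had no read in any library. Of 11 stromal markers 8 were tested, and 1 was called higher and 1 lower in each knockout than in Wt. Summed over all 11, the level was 563 to 733 in Ebf1-/-, 145 to 393 in Pax5-/- and 301 to 601 in Wt. The higher one, Pdgfrb, made up most of the Ebf1-/- sum (478 to 701 in Ebf1-/-, 32.8 to 52.9 in Pax5-/- and 0 to 2.6 in Wt). The lower one was Acta2 (14.6 to 27.1 in Ebf1-/-, 80.2 to 122 in Pax5-/- and 202 to 237 in Wt), so the summed level does not stand for the list as a whole. Over all tested genes 30.2% were called higher and 27.4% lower in Ebf1-/- than in Wt, and 26.5% and 23.0% in Pax5-/-. The part of these marker changes in the transporter results was not tested.

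Of the 64 genes, 29 had enough reads to be tested, 21 had some reads but too few, and 14 had none in any library. Calls were made with limma at an adjusted p under 0.05 over all 12839 genes tested. In Ebf1-/- against Wt 11 of the 29 were called higher and 9 lower, where 30.2% of all tested genes were called higher and 27.4% lower (57.6% in either direction). In Pax5-/- against Wt 10 were called higher and 11 lower, where 26.5% of all tested genes were called higher and 23.0% lower (49.5% in either direction). In Ebf1-/- against Pax5-/- 8 were called higher and 5 lower, against 20.1% and 19.6% of all tested genes (39.7% in either direction). The median log2 fold change of the 29 genes was 0.08, -0.11 and 0.11 in these 3 comparisons, beside -0.00, 0.03 and -0.01 over all tested genes. With the authors' scaling to all mapped reads, under which the median of all genes stood at 0.31 in Ebf1-/- and 0.28 in Pax5-/- over Wt, the same split was 13 higher and 3 lower in Ebf1-/-, and 10 higher and 6 lower in Pax5-/-. Of all 12839 tested genes, 5240 were then called higher and 1855 lower in Ebf1-/-, and 4451 higher and 1525 lower in Pax5-/-. Both knockouts were compared with the same Wt libraries. Set side by side, 9 of the 29 genes were called higher in both knockouts and 6 lower in both, where 19% and 16.7% of all tested genes were. One gene, Slc6a9, was called higher in Ebf1-/- and lower in Pax5-/-, as were 1.32% of all tested genes. In Ebf1-/- alone 1 was called higher and 3 lower, where 9.95% and 8.84% of all tested genes were. In Pax5-/- alone 1 was called higher and 4 lower, where 5.7% and 5.01% of all tested genes were. Another 4 of the 29 were called in neither (31.7% of all tested genes).

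**Figure D1:**
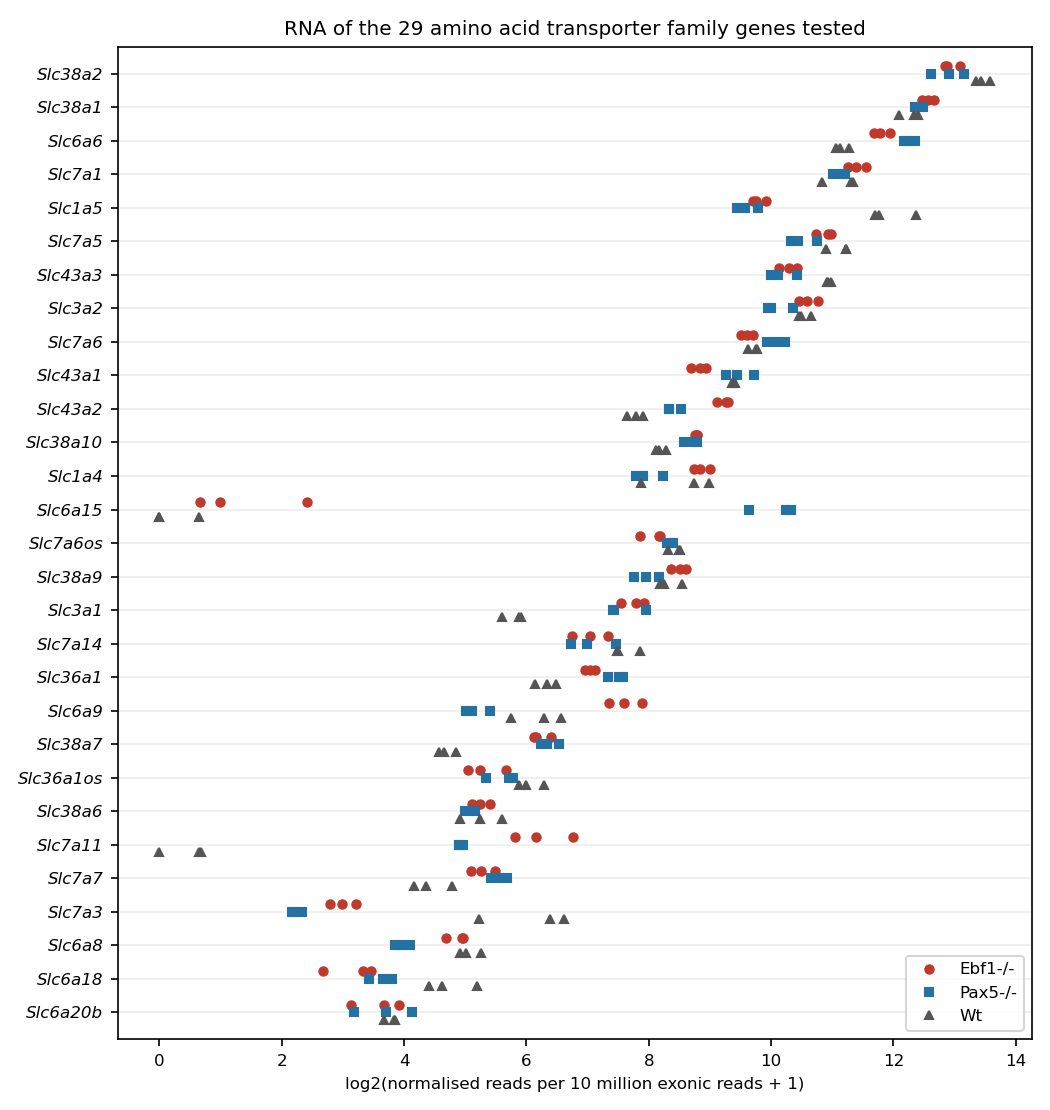
Each row is 1 of the 29 tested genes and each point 1 RNA library, on a log2 axis of normalised reads per 10 M exonic reads plus 1, ordered by the mean over all 9 libraries. Slc38a2 lies highest in every genotype, Slc6a15 is separated from both other genotypes in Pax5-/-, and Slc7a11 is near 0 in Wt.

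**Figure D2:**
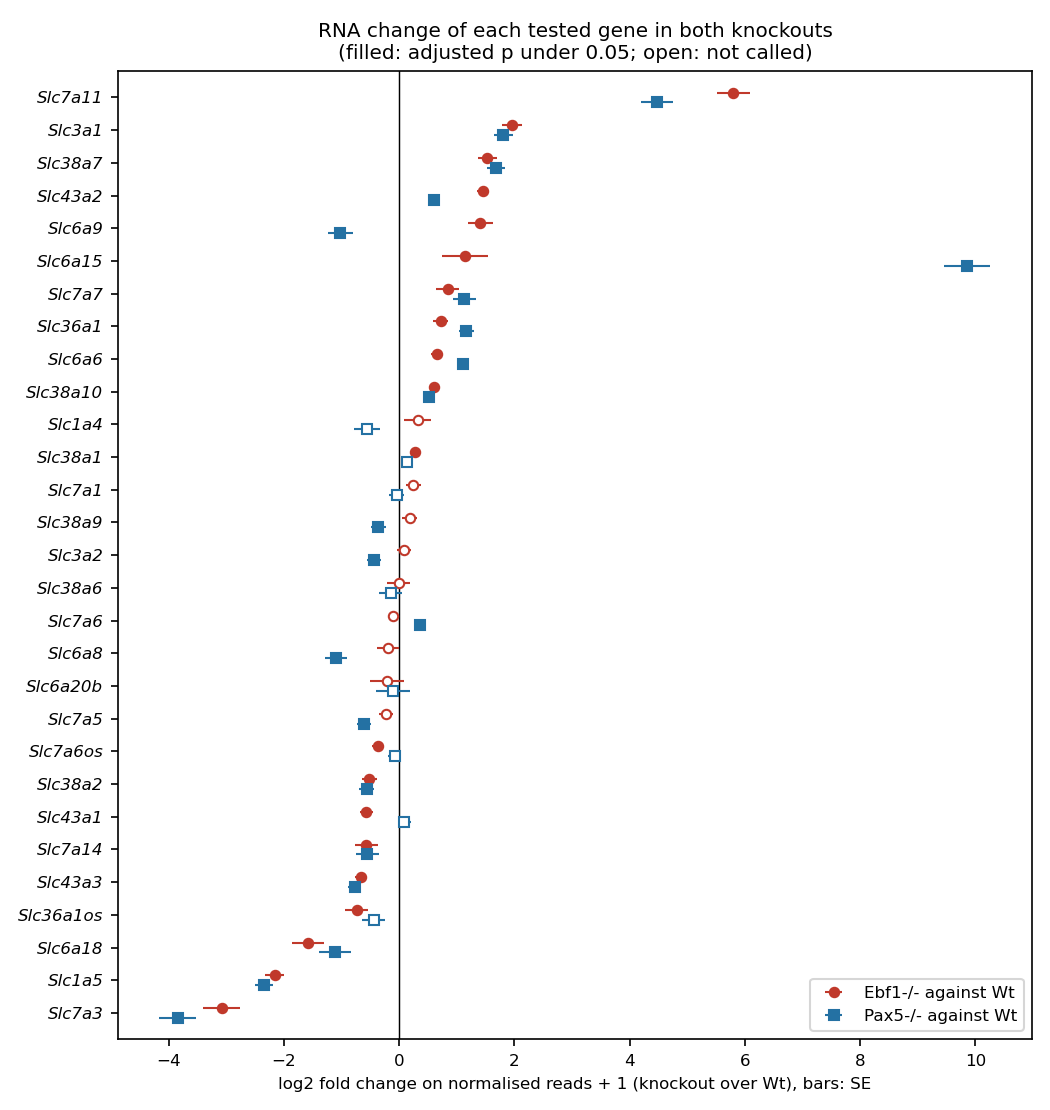
Log2 fold change (normalised reads plus 1, knockout over Wt) of the 29 tested genes in Ebf1-/- (circles) and Pax5-/- (squares), with the standard error as bars and open symbols for genes not called. Values span -3.08 to 5.80 in Ebf1-/- and -3.84 to 9.86 in Pax5-/-, and Slc6a9 lies on opposite sides of 0.

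The glutamine carrier Slc1a5 (ASCT2) was 4.55-fold lower in Ebf1-/- and 5.18-fold lower in Pax5-/- than in Wt. It had 834, 861 and 967 normalised reads in Ebf1-/- and 765, 693 and 882 in Pax5-/-, against 5295, 3345 and 3469.7 in Wt. No knockout library came near a Wt library, and the 2 knockouts overlapped. The log2 fold change was -2.16 (SE 0.16, limma adjusted p = 1.23e-07) in Ebf1-/- and -2.35 (SE 0.16, limma adjusted p = 8.58e-08) in Pax5-/-. Its family member Slc1a4 (ASCT1), a carrier of serine, alanine and cysteine, separated the knockouts from each other. It had 456, 426 and 512 in Ebf1-/-, 221, 238 and 299 in Pax5-/-, and 234, 428 and 508 in Wt. Ebf1-/- lay above Pax5-/- (0.89 on the log2 scale, SE 0.23, limma adjusted p = 0.00834), and Wt 1 stood with Pax5-/-. Pax5-/- against Wt was not called (-0.56, limma adjusted p = 0.0600) but was called with the replicate number as a block (adjusted p = 0.0111), without Wt 1 (-0.90, adjusted p = 0.000446) or Pax5-/- 3 (0.0464), with quantile normalization (0.0352), and with edgeR and DESeq2 (0.0274 and 0.00824).

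Slc38a2 (SNAT2), the amino acid carrier that many cells raise when starved of amino acids, had the most reads of the family in every library. It had 8748, 7562 and 7355 normalised reads in Ebf1-/- and 9137, 7708 and 6280.3 in Pax5-/-, against 12313, 11039.8 and 10464 in Wt. Every knockout library lay below every Wt library, with a log2 fold change of -0.52 (SE 0.13, limma adjusted p = 0.00381) in Ebf1-/- and -0.56 (SE 0.13, limma adjusted p = 0.00270) in Pax5-/-. Neither was called with the authors' scaling (adjusted p = 0.220 and 0.0727). Slc38a1 (SNAT1), a glutamine carrier, had 6471, 5647 and 6069 in Ebf1-/-, 5745, 5502 and 5253 in Pax5-/-, and 4381, 5192 and 5418 in Wt. It was called higher in Ebf1-/- than in Wt at a log2 fold change of 0.28 (limma adjusted p = 0.0183), but not without Ebf1-/- 1 (adjusted p = 0.0731) or Wt 1 (0.0701). Slc38a10, which had 433, 443 and 444 in Ebf1-/- and 425, 379 and 442 in Pax5-/-, against 309, 278 and 286 in Wt, rose in both (log2 fold change 0.60 in Ebf1-/- and 0.51 in Pax5-/-, limma adjusted p = 0.000103 and 0.000479). Slc38a6 averaged 36.3 over the 9 libraries and was called in no comparison.

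The lysosomal members did not move one way. Slc38a7 (SNAT7), which in human cells exports glutamine and asparagine from lysosomes, was higher in both knockouts. It had 83.5, 70.2 and 69.1 normalised reads in Ebf1-/- and 91.8, 74.9 and 79.6 in Pax5-/-, against 24.2, 28.0 and 22.8 in Wt (log2 fold change 1.53 and 1.68, limma adjusted p = 4.17e-06 and 2.70e-06). Slc36a1 (PAT1), a proton-coupled carrier of small neutral amino acids, had 124, 139 and 131 in Ebf1-/- and 189.6, 182 and 161 in Pax5-/-, against 88.2, 69.6 and 80.2 in Wt. All 3 genotypes were separate, at a log2 fold change of 0.72 in Ebf1-/- and 1.16 in Pax5-/- (limma adjusted p = 0.000428 and 1.15e-05). The difference of Ebf1-/- from Pax5-/- was -0.43 (limma adjusted p = 0.0193) and was not called without Ebf1-/- 1, Pax5-/- 1 or Pax5-/- 2 (adjusted p = 0.0624, 0.0657 and 0.0555). Slc38a9, a lysosomal arginine sensor of mTORC1, had 391, 366 and 330.0 in Ebf1-/-, 248, 286 and 216 in Pax5-/-, and 372, 302 and 290.4 in Wt. It was higher in Ebf1-/- than in Pax5-/- (0.54, limma adjusted p = 0.00540). Its call as lower in Pax5-/- than in Wt (-0.36, limma adjusted p = 0.0359) was lost without any of Ebf1-/- 2, Pax5-/- 1, Pax5-/- 3, Wt 1 or Wt 2 (adjusted p = 0.0515 to 0.142).

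Among the carriers that form dimers, Slc3a2 and Slc7a5 were lower in Pax5-/- and the cystine carrier Slc7a11 was higher in both knockouts. The shared heavy chain Slc3a2 had 1747, 1402 and 1545 normalised reads in Ebf1-/-, 989, 1028 and 1307 in Pax5-/-, and 1405, 1430.4 and 1606 in Wt. It was lower in Pax5-/- than in Wt (-0.43 on the log2 scale, SE 0.12, limma adjusted p = 0.00871, and 0.0514 without Pax5-/- 2) and was not called in Ebf1-/- (0.08, limma adjusted p = 0.598). Its leucine-carrying partner Slc7a5 (LAT1) had 1959, 1703 and 2017 in Ebf1-/-, 1382, 1285 and 1718 in Pax5-/-, and 1903, 2391 and 2389 in Wt. Slc7a5 was likewise lower in Pax5-/- (-0.61, SE 0.12, limma adjusted p = 0.00128) and not called in Ebf1-/- (-0.23, limma adjusted p = 0.130), where it was called without Wt 1 (adjusted p = 0.0358). Ebf1-/- lay above Pax5-/- for Slc3a2 (0.50, limma adjusted p = 0.00394) and for Slc7a5 (0.38, limma adjusted p = 0.0272), the second not without Ebf1-/- 1, Ebf1-/- 3, Pax5-/- 1 or Pax5-/- 2 (adjusted p = 0.0772, 0.0893, 0.0774 and 0.124). With the authors' scaling neither Pax5-/- call against Wt was made (adjusted p = 0.481 for Slc3a2 and 0.163 for Slc7a5). Slc7a6 (y+LAT2), which trades cationic for neutral amino acids, went the other way in Pax5-/-: it had 731, 783 and 836 in Ebf1-/-, 1196, 979.8 and 1073 in Pax5-/-, and 785, 862 and 873 in Wt. It was called higher in Pax5-/- than in Wt (0.36, limma adjusted p = 0.00579), and Ebf1-/- lay below Pax5-/- (-0.46, limma adjusted p = 0.00139, and 0.0622 with the authors' scaling).

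Slc7a11 (xCT), the cystine and glutamate exchanger, was close to absent in Wt. It had 108, 70.2 and 55.4 normalised reads in Ebf1-/- and 30.3, 28.9 and 28.8 in Pax5-/-, against 0.604, 0 and 0.557 in Wt. The 3 Wt libraries held 3 reads in all, and the ratio of summed reads was 166 (95% counting interval 56.6 to 808) in Ebf1-/- over Wt and 65.8 (22.3 to 321) in Pax5-/- over Wt. The interval is an exact Clopper-Pearson one and covers counting error only. The log2 fold change on normalised reads plus 1, which understates the change of a gene this low, was 5.80 (SE 0.28, limma adjusted p = 2.76e-09) in Ebf1-/- and 4.48 (SE 0.28, limma adjusted p = 4.79e-08) in Pax5-/-. Ebf1-/- also lay above Pax5-/- with no overlap (1.32, limma adjusted p = 0.00222).

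Slc7a7 (y+LAT1), a second exchanger of cationic and neutral amino acids, had 33.1, 43.7 and 37.4 normalised reads in Ebf1-/- and 46.4, 50.6 and 41.9 in Pax5-/-, against 26.6, 16.9 and 19.5 in Wt. It rose in both knockouts (log2 fold change 0.84 and 1.13, limma adjusted p = 0.00354 and 0.000593). Slc3a1 (rBAT), the heavy chain of the kidney cystine carrier, had 186, 221 and 241 in Ebf1-/- and 169.9, 173 and 248 in Pax5-/-, against 59.2, 47.5 and 57.9 in Wt. Its log2 fold change was 1.96 (SE 0.17, limma adjusted p = 7.21e-07) in Ebf1-/- and 1.81 (SE 0.17, limma adjusted p = 2.22e-06) in Pax5-/-, while its usual partner Slc7a9 had at most 0.650 in any library. Slc3a1 shares 26.5% of its annotated exon bases with Prepl on the other strand, and no source used here gives the strand setting of the counting. Prepl itself had a log2 fold change of 1.93 in Ebf1-/- and 1.75 in Pax5-/-, so the reads of Slc3a1 and Prepl cannot be told apart. Slc7a7 shares 7.0% of its exon bases with Oxa1l on the other strand, which had 535 to 922 normalised reads per library, far above Slc7a7. Oxa1l had a log2 fold change of 0.55 in Ebf1-/- and 0.61 in Pax5-/-, smaller than that of Slc7a7. The part of Oxa1l reads in the Slc7a7 level and its rise was not tested.

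Among the cationic amino acid transporters, the abundant arginine carrier Slc7a1 (CAT1) was called in no comparison with TMM scaling over all 9 libraries. It had 2691, 2439 and 3012 normalised reads in Ebf1-/-, 2300.4, 2061 and 2355 in Pax5-/-, and 1832, 2533 and 2603 in Wt. Without Wt 1, Ebf1-/- lay above Pax5-/- (log2 fold change 0.27, limma adjusted p = 0.0287). Ebf1-/- was called higher than Wt with the authors' scaling (0.56, adjusted p = 0.0287) and with quantile normalization (0.30, adjusted p = 0.0489). Slc7a3 (CAT3), a close relative known mainly from brain, fell to 6.89, 8.26 and 5.91 in Ebf1-/- and 4.03, 3.62 and 3.48 in Pax5-/-, against 36.2, 82.6 and 96.9 in Wt. Its log2 fold change was -3.08 (SE 0.32, limma adjusted p = 4.37e-06) in Ebf1-/- and -3.84 (SE 0.32, limma adjusted p = 8.37e-07) in Pax5-/-, and the lowest Wt library was still above all 6 knockout libraries. Ebf1-/- over Pax5-/- was 0.76 (limma adjusted p = 0.0853), called without Wt 1 (0.0155). Slc7a14, a lysosomal relative, had 131, 161 and 106 in Ebf1-/- and 176, 127 and 105 in Pax5-/-, against 232, 179 and 177 in Wt. Both knockouts were called lower (-0.57 and -0.55, limma adjusted p = 0.0310 and 0.0424), but neither without Wt 1 (adjusted p = 0.120 and 0.155) or with the authors' scaling. The Ebf1-/- call was also lost without Ebf1-/- 1 or Ebf1-/- 3 (adjusted p = 0.0615 and 0.128), and the Pax5-/- call without Ebf1-/- 1, Pax5-/- 2, Pax5-/- 3, Wt 2 or Wt 3 (0.0506 to 0.16).

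The SLC6 family held the largest single difference. Slc6a15 (B0AT2), a sodium-coupled carrier of branched-chain amino acids and proline known from brain, was read almost only in Pax5-/-. It had 4.30, 0.590 and 0.984 normalised reads in Ebf1-/- and 1284, 1208 and 801 in Pax5-/-, against 0, 0 and 0.557 in Wt. The Pax5-/- libraries held 9944 reads and the Wt libraries 2, a ratio of 3295 after scaling (95% counting interval 912 to 27212). The log2 fold change of Pax5-/- over Wt was 9.86 (SE 0.40, limma adjusted p = 1.27e-09), and that of Ebf1-/- over Pax5-/- was -8.72 (SE 0.40, limma adjusted p = 5.13e-09). The call of Ebf1-/- over Wt (1.14, limma adjusted p = 0.0290) rested on 15 reads against 2 and was lost without Ebf1-/- 1, Wt 1 or Wt 2 (adjusted p = 0.108, 0.0827 and 0.0824) and with edgeR (0.0985).

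Slc6a9 (GlyT1), the glycine transporter, was the only tested gene of the 29 called in opposite directions in the 2 knockouts. It had 235, 162 and 191 normalised reads in Ebf1-/- and 41.3, 33.6 and 31.2 in Pax5-/-, against 52.6, 76.7 and 93.6 in Wt, and the 3 genotypes did not overlap. The log2 fold change was 1.41 (SE 0.22, limma adjusted p = 0.000126) in Ebf1-/- and -1.02 (SE 0.22, limma adjusted p = 0.00192) in Pax5-/-. The direct comparison of Ebf1-/- with Pax5-/- gave 2.43 (SE 0.22, limma adjusted p = 1.78e-06). Its exons overlap those of Ccdc24 on the other strand, which had at most 7.08 normalised reads. Slc6a6 (TauT), the taurine transporter, had 3962, 3507 and 3300.3 in Ebf1-/- and 5264, 4829 and 4610.4 in Pax5-/-, against 2228, 2488 and 2145 in Wt. It rose by a log2 fold change of 0.65 in Ebf1-/- (limma adjusted p = 5.09e-05) and 1.10 in Pax5-/- (limma adjusted p = 6.20e-07), and Ebf1-/- lay below Pax5-/- (-0.45, limma adjusted p = 0.00149).

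Slc6a8, the creatine transporter, was lower in Pax5-/- alone among the calls against Wt, with 30.1, 24.8 and 30.02 normalised reads in Ebf1-/-, 16.1, 13.4 and 14.4 in Pax5-/-, and 37.5, 29.3 and 31.2 in Wt. Its log2 fold change was -1.10 (limma adjusted p = 0.000404) in Pax5-/- over Wt, and 0.90 (limma adjusted p = 0.00212) in Ebf1-/- over Pax5-/-. Slc6a18 (B0AT3), a neutral amino acid transporter of the kidney, had 9.04, 10.0 and 5.41 in Ebf1-/- and 11.6, 12.9 and 9.81 in Pax5-/-, against 35.6, 20.2 and 23.7 in Wt. It fell in both knockouts (-1.58 and -1.11, limma adjusted p = 0.000366 and 0.00555). Slc6a20b averaged 12.1 and was called in no comparison, and reads could be shared with its close copy Slc6a20a.

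**Figure D3:**
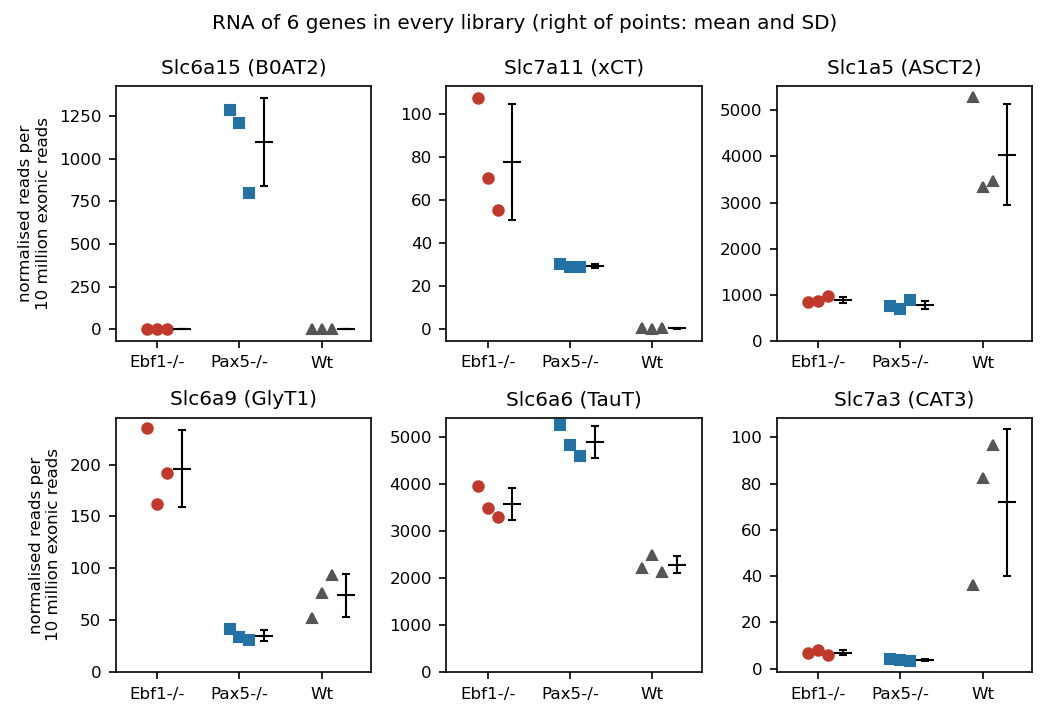
Normalised reads per 10 M exonic reads of 6 genes in every RNA library on linear axes, with the mean and SD of 3 libraries beside the points of each genotype. Slc6a15 is high in Pax5-/-, Slc7a11 is highest in Ebf1-/- and near 0 in Wt, Slc1a5 and Slc7a3 are low in both knockouts, Slc6a9 parts the knockouts, and Slc6a6 is high in both.

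The SLC43 genes split 3 ways. Slc43a2 (LAT4), a carrier of branched-chain amino acids, phenylalanine and methionine, had 555, 631 and 612 normalised reads in Ebf1-/- and 321, 320.4 and 368 in Pax5-/-, against 238, 200.2 and 221 in Wt. Its log2 fold change was 1.45 (SE 0.10, limma adjusted p = 9.59e-08) in Ebf1-/- and 0.61 (SE 0.10, limma adjusted p = 0.000296) in Pax5-/-. The difference of 0.83 between the knockouts was itself called (limma adjusted p = 2.82e-05). Slc43a1 (LAT3), its close relative, had 457, 412 and 487 in Ebf1-/-, 696, 615 and 843 in Pax5-/-, and 671, 656 and 678 in Wt. It was lower in Ebf1-/- than in either other genotype (-0.57 against Wt and -0.66 against Pax5-/-, limma adjusted p = 0.000863 and 0.000440). Slc43a3, which in human cells carries purine bases, had 1116, 1261 and 1380.0 in Ebf1-/- and 1022, 1109 and 1368 in Pax5-/-, against 1956, 1930.3 and 2019.7 in Wt. It fell in both (-0.66 and -0.77, limma adjusted p = 0.000232 and 8.89e-05). With the authors' scaling the Ebf1-/- calls of Slc43a1 and Slc43a3 against Wt were not made.

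The 2 tested genes matched by name only were lower in Ebf1-/- than in Wt. Slc36a1os had 37.01, 49.6 and 31.99 normalised reads in Ebf1-/-, 54.0, 51.7 and 39.4 in Pax5-/-, and 76.7, 57.9 and 62.9 in Wt (-0.74 in Ebf1-/-, limma adjusted p = 0.00850). Its neighbour Slc36a1 rose in the same libraries. Slc7a6os had 229.8, 288 and 289 in Ebf1-/-, 335, 314 and 331 in Pax5-/-, and 362, 318 and 359 in Wt (-0.37 in Ebf1-/-, limma adjusted p = 0.0120). Neither call was made with the authors' scaling (adjusted p = 0.0794 for Slc36a1os and 0.801 for Slc7a6os). Its difference between Ebf1-/- and Pax5-/- (-0.29, limma adjusted p = 0.0557) was called with the replicate number as a block (adjusted p = 0.0370).

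The 35 genes with too few reads for a test stayed at or below 8.85 normalised reads in every library. Some still separated the genotypes, and they were picked out after their values were seen. Slc6a19 (B0AT1), the neutral amino acid transporter of gut and kidney, had no read in Ebf1-/- or Pax5-/-, against 7.25, 8.45 and 5.01 in Wt. Set against a floor of 3 reads over the group, it was at least 18.6-fold lower in Ebf1-/- and at least 23.6-fold lower in Pax5-/-. Slc6a7, a proline transporter of brain, had 6.03, 8.85 and 2.71 in Ebf1-/- and 0, 1.03 and 0 in Pax5-/-, against no read in Wt, at least 13.3-fold higher in Ebf1-/- than in Wt. The brain glutamate carriers Slc1a2, Slc1a3 and Slc1a6, the GABA carrier Slc6a11 and the dopamine carrier Slc6a3 had at most 2 reads each over all 9 libraries.

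Levels of different genes can be compared only per length of exon. Per kilobase, Slc38a2 came first in all 3 genotypes, at 1711 ± 163 in Ebf1-/-, 1672 ± 310 in Pax5-/- and 2445 ± 205 in Wt (SD, n = 3 each, normalised reads per kilobase). The second place changed. It was Slc38a1 in Ebf1-/- (836 ± 56.9), Slc6a6 in Pax5-/- (797 ± 54.0) and Slc1a5 in Wt (1469 ± 397). In Ebf1-/- Slc1a5 stood at rank 8 (323 ± 25.5) and in Pax5-/- at rank 11 (284 ± 34.8). The neighbours Slc6a6 and Slc38a1 in Pax5-/- (759 ± 33.9) overlapped in range, as did Slc3a2 (611 ± 67.8), Slc6a6 (584 ± 55.0) and Slc7a5 (541 ± 47.6) in Ebf1-/-. Slc6a15, at 4.30 normalised reads or fewer in every library of the other genotypes, stood at rank 8 in Pax5-/- (302 ± 71.6), within the range of Slc43a1 (297 ± 47.8) and Slc7a6 (291 ± 29.1). Summed over the 61 transporter family genes, normalised reads were 29931 ± 1573 in Ebf1-/-, 29802 ± 1759 in Pax5-/- and 33975 ± 537 in Wt (SD, n = 3 each).

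The authors tabulated ATAC signal at EBF1 and PAX5 binding sites, taken from published chromatin immunoprecipitation data, and named the nearest gene of each. Of 14377 sites, 36 had an amino acid transporter gene as nearest gene: 21 of 7815 sites bound by EBF1 only, 12 of 5033 bound by PAX5 only and 3 of 1529 bound by both. They belonged to 24 genes. A selection of the sites described here, from Slc38a2, Slc1a5, Slc43a3 and Slc6a19, is printed to show the DNA whose openness changed. They were picked after their values were seen, and sites not printed, such as those at -589 bp from Slc7a9 and -23679 bp from Slc43a3, fell as far as some of them. Distances are from the start site of the nearest gene, negative where upstream. Bases are those of the RefSeq mm10 (GRCm38) genome at the deposited coordinates, plus strand, with capitals for the EBF1 core CCCNNGGG, which reads the same on both strands. The PAX5 core GCNTGAC, sought on both strands, would also have been in capitals but occurred in none of these.
Slc38a2, PAX5 only, at -8508 bp, chr15:96708082-96708330: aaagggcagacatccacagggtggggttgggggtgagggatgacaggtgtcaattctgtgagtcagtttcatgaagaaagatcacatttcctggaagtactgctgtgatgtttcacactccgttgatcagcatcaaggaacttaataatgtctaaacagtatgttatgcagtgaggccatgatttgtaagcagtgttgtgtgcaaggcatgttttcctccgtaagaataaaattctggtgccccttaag
Slc1a5, PAX5 only, at 3272 bp in intron 1, chr7:16784494-16784742: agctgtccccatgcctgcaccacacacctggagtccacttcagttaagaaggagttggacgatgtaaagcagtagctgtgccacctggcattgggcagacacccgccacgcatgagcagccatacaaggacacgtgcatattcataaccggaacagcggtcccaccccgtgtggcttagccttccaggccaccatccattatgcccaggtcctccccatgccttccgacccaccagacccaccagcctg
Slc1a5, EBF1 only, at -20703 bp, chr7:16760508-16760778: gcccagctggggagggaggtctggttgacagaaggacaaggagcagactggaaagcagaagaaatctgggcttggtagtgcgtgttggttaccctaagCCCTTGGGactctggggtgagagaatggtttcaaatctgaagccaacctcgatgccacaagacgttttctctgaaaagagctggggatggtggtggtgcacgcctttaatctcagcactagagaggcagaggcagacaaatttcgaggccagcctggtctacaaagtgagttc
Slc43a3, EBF1 only, at -5807 bp, chr2:84930704-84930974: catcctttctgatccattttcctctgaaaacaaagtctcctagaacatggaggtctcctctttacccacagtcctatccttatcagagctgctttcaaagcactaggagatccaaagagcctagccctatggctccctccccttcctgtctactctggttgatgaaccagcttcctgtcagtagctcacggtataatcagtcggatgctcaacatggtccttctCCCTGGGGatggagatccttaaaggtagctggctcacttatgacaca
Slc43a3, PAX5 only, at -6309 bp, chr2:84930213-84930461: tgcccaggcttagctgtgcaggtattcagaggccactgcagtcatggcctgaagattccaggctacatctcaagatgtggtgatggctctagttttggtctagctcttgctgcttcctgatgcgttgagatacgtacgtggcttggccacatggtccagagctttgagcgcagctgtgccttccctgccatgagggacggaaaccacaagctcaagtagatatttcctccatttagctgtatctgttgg
Slc6a19, PAX5 only, at -2199 bp, chr13:73702770-73703018: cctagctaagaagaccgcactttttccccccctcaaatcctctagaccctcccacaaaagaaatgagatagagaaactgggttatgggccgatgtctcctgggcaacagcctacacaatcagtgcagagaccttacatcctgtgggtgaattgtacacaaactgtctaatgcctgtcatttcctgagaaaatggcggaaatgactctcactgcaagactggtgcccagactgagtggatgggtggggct
Over all sites scanned, the EBF1 core was in 57.8% of EBF1-only sites and 8.11% of PAX5-only sites, with median lengths of 271 and 249 bases, and in 14 of the 21 and 1 of the 12 sites nearest transporter genes. The PAX5 core was in 21.2% of all PAX5-only sites and in 0 of these 12, and in 9.32% of all EBF1-only sites and 2 of these 21. A match describes letters only, and its absence says nothing of binding.

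Openness of these sites went mostly down in the knockouts, as it did over all bound sites. In Ebf1-/- against Wt 18 of the 36 were called lower and 3 higher, where 51.1% of the 14365 tested sites were called lower and 3.28% higher (54.4% in either direction). In Pax5-/- against Wt 19 were called lower and 0 higher, where 51.5% were called lower and 2.11% higher (53.7% in either direction). In Ebf1-/- against Pax5-/- 6 were called lower and 6 higher, beside 12.6% and 9.06% (21.7% in either direction). The shares called lower than Wt are near the background. The 3 of 36 called higher in Ebf1-/- than in Wt and the 12 of 36 called between the knockouts are larger shares than over all sites, a difference that was not tested. The median log2 fold change of the 36 sites was -0.71 in Ebf1-/- and -0.76 in Pax5-/- over Wt, beside -0.78 and -0.75 over all tested sites. With TMM scaling over bound sites, which brings the median of all sites to -0.10 and 0.03, the split was 14 lower and 10 higher in Ebf1-/- and 11 lower and 6 higher in Pax5-/-. Of all 14365 tested sites, 4262 were then lower and 2927 higher in Ebf1-/-, and 3047 lower and 1948 higher in Pax5-/-.

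At Slc38a2, the PAX5-only site at -8508 bp had 1.56, 2.42 and 2.24 ATAC tags per 10 M in Ebf1-/- and 1.41, 2.12 and 1.74 in Pax5-/-, against 41.8, 16.0 and 21.5 in Wt. Its log2 fold change was -3.06 (SE 0.33, limma adjusted p = 1.12e-13) in Ebf1-/- and -3.21 (SE 0.33, limma adjusted p = 2.58e-14) in Pax5-/-. A second PAX5-only site, at -78769 bp, had 2.73, 2.72 and 2.56 in Ebf1-/- and 1.06, 0.800 and 0.430 in Pax5-/-, against 11.8, 10.8 and 21.5 in Wt (-2.03 and -3.11, limma adjusted p = 3.96e-07 and 1.09e-12). Both sites fell in each knockout, as Slc38a2 RNA did. An EBF1-only site at -10541 bp fell less (-0.74 and -0.98, limma adjusted p = 0.0197 and 0.00220), the Ebf1-/- call not without Ebf1-/- 1, Ebf1-/- 2 or Wt 3 (0.116, 0.0631 and 0.0746). With TMM scaling over bound sites it turned to 0.08 in Ebf1-/- (adjusted p = 0.806) and was no longer called in Pax5-/- (0.720).

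Slc1a5 had a site of each kind. The PAX5-only site in intron 1 had 3.50, 3.33 and 2.56 tags per 10 M in Ebf1-/- and 2.47, 1.86 and 3.91 in Pax5-/-, against 17.0, 13.1 and 13.5 in Wt. It fell in both (log2 fold change -1.91 and -2.08, limma adjusted p = 2.17e-07 and 3.44e-08). The EBF1-only site at -20703 bp had 3.12, 2.12 and 1.60 in Ebf1-/-, 10.2, 8.75 and 13.0 in Pax5-/-, and 24.8, 7.69 and 12.7 in Wt. That site fell in Ebf1-/- (-2.17, limma adjusted p = 2.46e-09) and was not called in Pax5-/- (-0.33, limma adjusted p = 0.373), and the knockouts differed directly (-1.84, limma adjusted p = 1.49e-06). Slc1a5 RNA was low in both knockouts.

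Near Slc43a3, whose RNA fell in both knockouts, 3 sites were called. The PAX5-only site at -6309 bp had 10.1, 11.5 and 8.96 tags per 10 M in Ebf1-/-, 6.0, 5.04 and 2.17 in Pax5-/-, and 24.2, 8.26 and 21.8 in Wt. It fell in Pax5-/- (-1.77, limma adjusted p = 5.01e-07), and in Ebf1-/- it had -0.65 (limma adjusted p = 0.0628), called without Wt 2 (-1.10, adjusted p = 0.000917) or Pax5-/- 3 (0.0433). The EBF1-only site at -5807 bp had 4.28, 1.82 and 4.48 in Ebf1-/- and 7.41, 4.77 and 6.08 in Pax5-/-, against 16.3, 8.83 and 17.9 in Wt. It fell in both (-1.77 and -1.08, limma adjusted p = 6.47e-07 and 0.00224), although the Pax5-/- call was lost with TMM scaling over bound sites (adjusted p = 0.574). The EBF1-only site at -23679 bp fell in both as well (-2.81 and -1.89, limma adjusted p = 1.04e-10 and 6.21e-06).

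Sites and transcripts did not always move together. Slc6a6 RNA rose in both knockouts, while its intronic EBF1-only site at 15016 bp had 6.62, 6.35 and 8.32 tags per 10 M in Ebf1-/- and 3.17, 6.10 and 1.30 in Pax5-/-, against 17.0, 8.55 and 11.7 in Wt, and was called lower in Pax5-/- (-1.67, limma adjusted p = 5.28e-06). The PAX5-only site in an intron of Slc3a2 was higher in Ebf1-/-, with 8.57, 12.7 and 9.28 in Ebf1-/-, 3.53, 3.45 and 6.52 in Pax5-/-, and 5.23, 2.56 and 5.44 in Wt (1.08 over Wt, limma adjusted p = 0.00243), where Slc3a2 RNA was not called. A PAX5-only site at -4795 bp from Slc43a2 was called lower in both (-1.02 and -0.99, limma adjusted p = 0.0129 and 0.0168), but in neither without Wt 1 (adjusted p = 0.15 and 0.178), nor in Ebf1-/- without Ebf1-/- 1 (0.157) or in Pax5-/- without Pax5-/- 2 (0.0667), while Slc43a2 RNA rose. With TMM scaling over bound sites that site stood at -0.31 and -0.23, and neither was called (adjusted p = 0.516 and 0.656). The site nearest Slc7a11 lay 136055 bp away and was called lower in Pax5-/- than in Wt (-0.99, limma adjusted p = 0.0119), a call lost without Pax5-/- 2, Pax5-/- 3 or Wt 3 (0.0580, 0.145 and 0.0924) and with TMM scaling over bound sites (-0.25, 0.604). No bound site had Slc6a15, Slc6a9, Slc7a3 or Slc38a7 as nearest gene. Of the 29 tested genes 12 had a bound site. Of these 12, 6 were called higher and 3 lower in RNA in Ebf1-/- against Wt, 6 higher and 4 lower in Pax5-/- against Wt, and 4 higher and 2 lower in Ebf1-/- against Pax5-/-. Of the 17 without a bound site, 5 were higher and 6 lower, 4 higher and 7 lower, and 4 higher and 3 lower in the same comparisons, where 57.6%, 49.5% and 39.7% of all tested genes were called.

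The 2 sites with the highest Wt signal among those that fell lay at Slc6a19 and were singled out after their values were seen. The PAX5-only site at -2199 bp had 2.73, 0.910 and 1.28 tags per 10 M in Ebf1-/- and 8.47, 6.10 and 6.52 in Pax5-/-, against 57.5, 33.6 and 43.8 in Wt. The EBF1-only site at -2753 bp had 2.73, 1.21 and 2.24 in Ebf1-/- and 8.11, 6.10 and 3.91 in Pax5-/-, against 39.2, 27.9 and 28.5 in Wt. At both sites the 3 genotypes were separate. The log2 fold change at the PAX5-only site was -4.15 (SE 0.29, limma adjusted p = 5.68e-23) in Ebf1-/- and -2.50 (SE 0.29, limma adjusted p = 3.84e-12) in Pax5-/-, and Ebf1-/- lay below Pax5-/- (-1.65, limma adjusted p = 3.93e-06). Slc6a19 RNA was low in Wt and unread in both knockouts. The promoter of Slc7a9 held a PAX5-only site at -589 bp with 1.95, 1.51 and 2.56 in Ebf1-/- and 1.06, 0.800 and 1.30 in Pax5-/-, against 28.1, 15.1 and 20.5 in Wt, although Slc7a9 had 4 RNA reads over all libraries. Promoter sites of Slc1a4 and Slc38a10 were called lower in Pax5-/- than in Wt (-0.74 and -0.77, limma adjusted p = 0.0113 and 0.0101). Both changes were near the median of all tested sites in that comparison (-0.75, and 0.03 with TMM scaling over bound sites). Promoter sites at Slc38a1, Slc3a2 and Slc7a6 were called in no comparison.

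**Figure D4:**
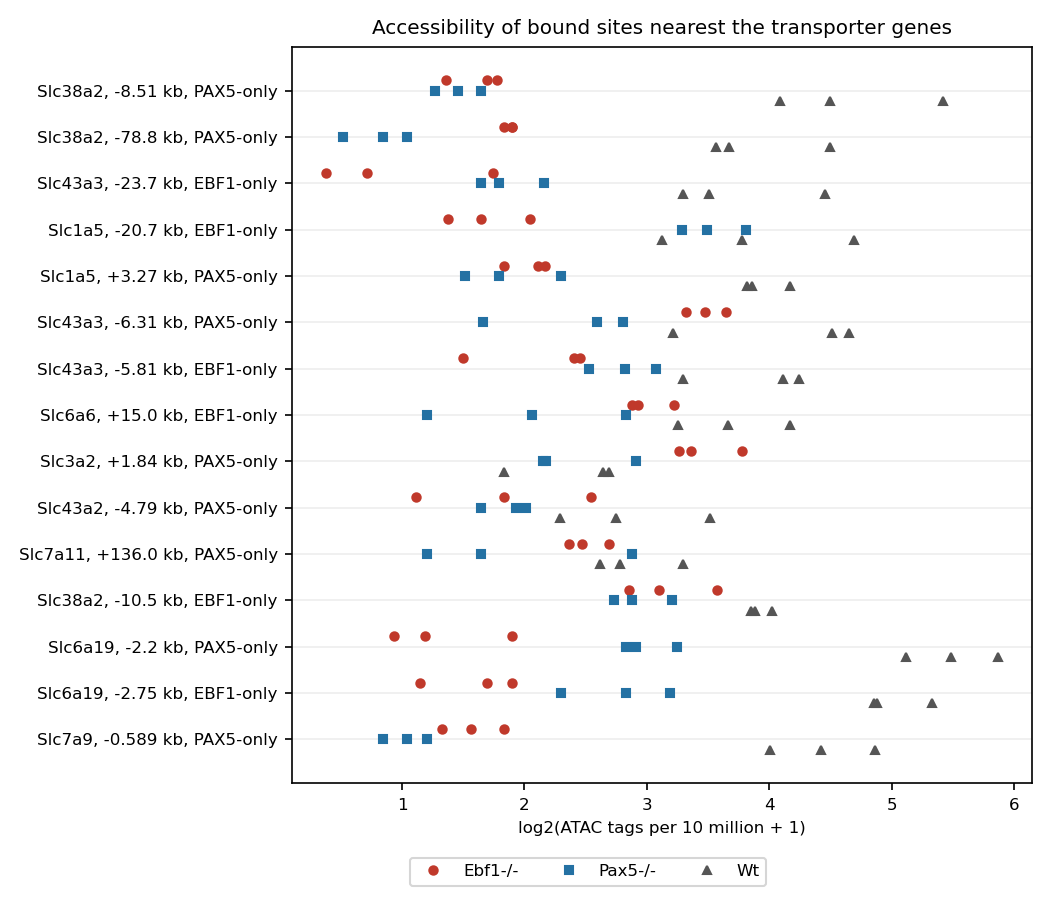
ATAC tags per 10 M (log2 of the value plus 1) in each of the 9 ATAC libraries at 15 bound sites, named by nearest gene, distance to its start site (minus, upstream) and binding class. The first 12 are sites of tested genes called in at least 1 comparison, and the last 3, at Slc6a19 and Slc7a9, are the sites outside that rule with the lowest fold change in either knockout, added after their values were seen. Wt libraries lie highest at most of them, and the Slc3a2 site is highest in Ebf1-/-.

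Other genes of amino acid metabolism were followed through 6 lists. In the amino acid response list, genes tied to the starvation factor ATF4, 13 of 19 tested genes were called lower and 1 higher in Pax5-/- than in Wt, with a list median of -0.65 beside 0.03 over all genes. With the authors' scaling, under which 4451 of all tested genes were higher and 1525 lower in Pax5-/-, 5 of the list were lower and 2 higher. Without Wt 1, where 3115 of all 13123 tested genes were higher and 2735 lower, the count was 11 lower and 1 higher. In Ebf1-/- against Wt 6 were lower and 5 higher (median -0.10), near the 27.4% and 30.2% of all tested genes. In Pax5-/- against Wt 23.0% of all tested genes were called lower and 26.5% higher. In Ebf1-/- against Pax5-/- 14 of the list were higher and 1 lower (median 0.71, beside -0.01 over all genes). Over all tested genes 20.1% were higher and 19.6% lower there. Chac1, which breaks down glutathione, had 17.6, 14.2 and 22.1 normalised reads in Ebf1-/- and 0, 0 and 1.11 in Pax5-/-, against 152, 157 and 165 in Wt, so it fell in both and furthest in Pax5-/- (log2 fold change -3.09 and -6.95, limma adjusted p = 1.92e-06 and 1.79e-09). Cebpb, a transcription factor gene also active in myeloid cells, was the 1 gene of the list called higher in Pax5-/-, and it rose in both knockouts. It had 36.2, 14.2 and 19.9 in Ebf1-/- and 6.56, 10.9 and 12.2 in Pax5-/-, against 0.604, 0 and 0.278 in Wt (4.16 and 3.06, limma adjusted p = 7.02e-07 and 1.73e-05). Macrophage and neutrophil markers were higher in the same libraries, and their part in this rise was not tested. Sesn2, a stress-induced leucine sensor, rose in Ebf1-/-, with 420.5, 269.7 and 305 in Ebf1-/- and 89.8, 73.9 and 74.8 in Pax5-/-, against 52.0, 55.3 and 68.2 in Wt (2.47 and 0.44, limma adjusted p = 1.21e-07 and 0.0573).

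Amino acid transporters of other families leaned upward. Of 17 tested genes, 10 were called higher and 2 lower in Ebf1-/-, and 11 higher and 2 lower in Pax5-/-, each against Wt, with list medians of 0.49 and 0.54 beside -0.00 and 0.03 over all genes. Over all tested genes 30.2% were called higher and 27.4% lower in Ebf1-/-, and 26.5% and 23.0% in Pax5-/-. With quantile normalization the Pax5-/- count was 6 higher and 2 lower. Of all 12839 tested genes 3016 were higher and 3448 lower in that setting. Slc16a10 (TAT1), the carrier of aromatic amino acids, had 2088, 2855 and 2901 normalised reads in Ebf1-/- and 2492, 2091 and 1905 in Pax5-/-, against 7.85, 3.25 and 1.95 in Wt (log2 fold change 9.07 and 8.81, limma adjusted p = 1.15e-10 and 3.31e-10). Slc15a3, a lysosomal histidine and peptide carrier, fell to 5.16, 1.18 and 0.984 in Ebf1-/- and 9.58, 3.10 and 4.27 in Pax5-/-, against 53.2, 64.4 and 73.8 in Wt (-4.43 and -3.39, limma adjusted p = 2.71e-06 and 4.17e-05).

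Of 28 tested genes of amino acid sensing upstream of mTORC1, 6 were called higher and 5 lower in Ebf1-/-, and 6 higher and 7 lower in Pax5-/-, against Wt. The list medians were 0.03 and 0.07, and 57.6% and 49.5% of all tested genes were called in these comparisons, larger shares than in the list. The kinase gene Mtor had 1184, 1279.6 and 1319.9 normalised reads in Ebf1-/- and 1212, 1295 and 1327 in Pax5-/-, against 7338, 7575 and 7658 in Wt. Rragd, a Rag GTPase that recruits mTORC1 to lysosomes, had 62.8, 43.1 and 25.6 in Ebf1-/- and 351, 307 and 241 in Pax5-/-, against 2565, 2764 and 2962 in Wt, and all 3 genotypes were separate. Fnip2, a folliculin partner in the same pathway, had 1189.97, 865 and 846 in Ebf1-/- and 1074, 899.7 and 888 in Pax5-/-, against 4.83, 3.90 and 5.01 in Wt. The log2 fold changes of Mtor were -2.58 and -2.56, those of Rragd -6.03 and -3.21, and those of Fnip2 7.43 and 7.42 in Ebf1-/- and Pax5-/- over Wt, all called.

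The remaining lists were mixed, and their counts stand beside 30.2% higher and 27.4% lower in Ebf1-/- and 26.5% higher and 23.0% lower in Pax5-/- over all tested genes. Of 20 cytosolic aminoacyl-tRNA synthetases, 2 were called higher and 3 lower in Ebf1-/-, and 3 higher and 5 lower in Pax5-/-, against Wt (list medians 0.07 and -0.20). With the replicate number as a block, and also without Wt 1, 10 were lower in Pax5-/-, and with the authors' scaling, which moved the calls of all genes upward as given above, 0 were lower and 4 higher. Over all tested genes, 3442 of 12839 were lower in Pax5-/- with the block and 2735 of 13123 without Wt 1. By fold change the leading genes of the list were Sars (-0.56), Farsa (0.57) and Gars (-0.57), each called in Pax5-/- against Wt (limma adjusted p = 0.00123, 0.00157 and 0.000222). Of 22 enzymes of glutamine and branched-chain amino acid use, 6 were higher and 7 lower in Ebf1-/-, and 3 higher and 8 lower in Pax5-/- (list medians -0.02 and -0.08). Gls2, a glutaminase, rose to 18.5, 24.8 and 24.1 normalised reads in Ebf1-/- and 23.2, 17.6 and 26.6 in Pax5-/-, against 3.02, 5.20 and 6.40 in Wt (2.03 and 2.02, limma adjusted p = 3.65e-05 and 5.20e-05). Bckdhb, a subunit of the branched-chain keto acid dehydrogenase, fell to 19.4, 18.9 and 19.4 in Ebf1-/- and 42.4, 42.9 and 57.9 in Pax5-/-, against 76.1, 94.9 and 78.2 in Wt. Bcat1, which transaminates branched-chain amino acids in the cytosol, fell to 603, 614 and 786 normalised reads in Ebf1-/- and 535, 659 and 729.9 in Pax5-/-, against 2146, 2794 and 2919 in Wt. Of 13 genes of glutathione synthesis and cystine use, 2 were higher and 3 lower in Ebf1-/-, and 3 higher and 4 lower in Pax5-/- (list medians 0.05 and -0.14). The glutathione peroxidase genes Gpx1 (1.09 and 1.13) and Gpx4 (0.85 in each) rose in Ebf1-/- and Pax5-/- over Wt, with limma adjusted p at most 7.08e-05. Cth, which makes cysteine from cystathionine, fell to 28.0, 15.9 and 14.3 in Ebf1-/- and 6.56, 9.82 and 6.33 in Pax5-/-, against 187, 283 and 281 in Wt, beside the rise of the cystine carrier Slc7a11 in the same libraries.

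The authors' deposited tables of changed genes gave the same direction wherever they listed a gene called here. Of the 11 genes called higher in Ebf1-/- than in Wt 6 were in the authors' deposited table, and of the 9 called lower 3 were. Of the 10 called higher in Pax5-/- 7 were in the authors' deposited table, and of the 11 called lower 5 were. Calls here had no cut on fold change. The smallest change in size that the authors' tables held for a transporter gene was -1.09 on the log2 scale (Slc6a9 in Pax5-/-). Genes called here but absent there lay between -0.77 (Slc43a3 in Pax5-/-) and 0.84 (Slc7a7 in Ebf1-/-). The overlap therefore does not compare calls at a like fold change. The authors' deposited table also listed genes with too few reads to be tested here, among them Slc6a7 at a log2 fold change of 6.78 in Ebf1-/- and Slc6a19 at -7.03 in Ebf1-/- and -7.22 in Pax5-/-. In the authors' deposited table Slc6a15 stood at 11.67 in Pax5-/- and 2.61 in Ebf1-/-, and Slc7a11 at 7.32 in Ebf1-/- and 5.92 in Pax5-/-.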

How the data were processed

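Per the labels' protocols, RNA was prepared with the NuGEN Ovation Ultralow system and sequenced as single reads of 76 cycles, and ATAC used Nextera transposomes. The submitters' processing notes name TopHat, HOMER, edgeR and DESeq2 for RNA, Bowtie2 and HOMER for ATAC, and build mm10 (GRCm38), with no tool versions. Per the file headers, the RNA signal the authors deposited is reads over exons per 10 M mapped reads, 1 transcript per gene. Divided by the value of 1 read, all values were whole to within 0.1 reads, so read counts were recovered from the deposited values. The ATAC signal is the authors' tags per 10 M per bound site. The peak score of each site, the distance values to the nearest start site, and the log2 fold changes and adjusted p-values of the changed-gene tables were deposited by the authors.

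Recovered reads were scaled to exonic reads with TMM (edgeR 4.0.16), because the exonic share of mapped reads differs between libraries, filtered with filterByExpr, and tested as log2(normalised reads + 1) with limma 3.58.1 (trend) in 1 model over 9 libraries, Benjamini-Hochberg adjusted, two-sided, in R 4.3.3. ATAC values kept the authors' scaling, as log2(tags + 1), for sites with at least 10 tags. The count tests edgeR and DESeq2 1.42.0 were alternatives on the recovered reads. On these, edgeR called 3809 genes higher and 3570 lower in Ebf1-/- against Wt, and 3350 higher and 3051 lower in Pax5-/- against Wt. Libraries with the same replicate number deviated together in RNA (correlations of deviations from the group means 0.116 to 0.401, against -0.327 to 0.0257 for different numbers). The numbers are therefore taken to pair the RNA libraries, from the data and not from the sample labels. The RNA column headers also carry serial codes that run through the 3 genotypes by replicate number, and their meaning is not stated. Library 3 was the deepest in each genotype, at 40.5 (Ebf1-/-), 63.6 (Pax5-/-) and 37.4 M exonic reads (Wt). The main model has no term for the pairing by number, so its p-values ignore it. With the replicate number as a block 4260 genes were called higher and 4015 lower in Ebf1-/- against Wt, beside 3883 and 3515 in the main model. In Pax5-/- against Wt these were 3944 and 3442, beside 3404 and 2956.

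Genes and lists were chosen with earlier results of these data known. Named were genes called in at least 1 comparison or with a mean of at least 100 normalised reads (up to 30), up to 12 called sites nearest them, and up to 3 called genes per list by fold change. Exon overlaps come from GENCODE vM21. Mean profiles over sites and peak lists near changed genes were not used here. Depth per ATAC library was 15.3 to 38.6 M tags.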

Additional observations from a re-analysis of the deposited data

How the results depend on the processing

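Of 54 RNA calls of named genes, 38 were kept under every alternative tried and none reversed. With the authors' scaling to mapped reads 14 were lost, and the count of transporter genes called lower was 3 in Ebf1-/- against Wt, 6 in Pax5-/- against Wt and 3 in Ebf1-/- against Pax5-/-. Of all 12839 tested genes, 1855, 1525 and 1712 were lower in the same comparisons. Without a filter on low reads the counts were 16 higher and 13 lower, 10 and 14, and 11 and 5 in these comparisons. Of all 18108 genes then tested, 4320 were higher and 3860 lower, 3568 and 3225, and 2859 and 2623. Leaving out 1 library gave 9 to 12 higher and 9 to 11 lower in Ebf1-/- against Wt, 10 to 10 and 10 to 12 in Pax5-/- against Wt, and 7 to 11 and 4 to 5 in Ebf1-/- against Pax5-/-. Of the 13035 to 13173 genes then tested, 3583 to 4080 were higher and 3130 to 3765 lower in Ebf1-/- against Wt. In Pax5-/- against Wt 3045 to 3490 were higher and 2628 to 3036 lower, and between the knockouts 2234 to 2755 and 2187 to 2641. With the replicate number as a block no RNA call was lost, and the calls of Slc1a4 and Slc7a6os were the only named ones gained. Outside the block, calls of Slc7a1, Slc7a5, Slc1a4, Slc38a9, Slc36a1os and Slc7a3 were gained under at least 1 alternative.

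Of 24 ATAC calls of named sites, 14 were kept under every alternative. TMM over bound sites lost 6 of them, at Slc43a3 (-5807 bp), Slc43a2, Slc7a11 and Slc38a2 (-10541 bp). With TMM over bound sites 10 sites were higher in Ebf1-/- than in Wt, where 2927 of all 14365 tested sites were. In Pax5-/- against Wt 6 were higher and 11 lower, where 1948 and 3047 of all tested sites were. The Slc38a2 site at -10541 bp turned to 0.08 in Ebf1-/- against Wt. Within 10 kb of a start site 8 sites were lower in Ebf1-/- and 10 in Pax5-/- than in Wt. Between the knockouts 3 of these sites were higher and 2 lower in Ebf1-/- than in Pax5-/-. These counts come from fewer sites, and no share over all bound sites within 10 kb stands beside them. Leaving out 1 library gave 2 to 3 higher and 16 to 21 lower in Ebf1-/-, and 0 to 1 and 16 to 23 in Pax5-/-, against Wt, and 2 to 8 and 4 to 7 between the knockouts. Of the 14350 to 14361 sites then tested, 342 to 531 were higher and 6583 to 7706 lower in Ebf1-/- against Wt. In Pax5-/- against Wt 215 to 299 were higher and 6223 to 7947 lower, and between the knockouts 655 to 1661 and 1451 to 1955. ATAC libraries with the same number correlated at -0.0523 to 0.1103 (other numbers -0.138 to 0.102), so no pairing was taken from these values. With few tags per site they cannot show whether libraries of the same number were prepared together, which the labels do not say. A replicate block in ATAC gave 2 higher and 19 lower, 0 and 20, and 6 and 7. Of all 14365 tested sites, 467 were then higher and 7351 lower, 303 and 7393, and 1278 and 1858. The cause of these shifts was not tested. Few tags per site limit the ATAC comparisons.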
